A study of Penicillium oxalicum with 9 samples.

Results

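The 4 genes described here, POX_c04204, POX_c04515, POX_c04123 and POX_g09252, are annotated as sugar transporters of the filamentous fungus Penicillium oxalicum. They were taken from a list of 41 sugar transporter genes, out of 9822 annotated genes in the expression tables, because of their values in the mutants. POX_c04204 had the largest rise of the list without prmt3, POX_c04515 the largest fall in both mutants, POX_c04123 the largest rise without cxrA, and POX_g09252 fell without prmt3 and rose without cxrA. The genes were thus chosen by the FPKM differences of each mutant from Δku70, and those values are given as a description, with no test. The annotation is Sugar/inositol transporter for POX_c04204, POX_c04123 and POX_g09252, and Sugar transporter, conserved site for POX_c04515, and no substrate is assigned to any of them in the sources used here.

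RNA sequencing was carried out on mycelium of 3 strains, with 3 libraries each, which the study treats as biological replicates. All strains carried the ku70 deletion with the hygromycin marker hph, made in strain HP7-1, and ku70 loss is used in fungi to favour targeted integration of introduced DNA. In Δprmt3 the gene prmt3 (POX_b03080), encoding a protein arginine methyltransferase, was replaced by the G418 resistance marker. In ΔcxrA the gene cxrA (POX_a00763), encoding a Gal4-like transcription factor needed for production of plant-polysaccharide-degrading enzymes, was replaced by the same marker. The background strain Δku70, labelled WT in the sample records, had both genes and no G418 marker, so the marker and the deletions cannot be told apart. Mycelium of each strain was first raised on 1% glucose at 28 °C, then moved to 2% Avicel (microcrystalline cellulose), with 24 h in each medium. How many transformants each strain stands for is not given in the sources used here.

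Sugar porters of the major facilitator superfamily are membrane proteins with several membrane-spanning helices that carry hexoses, pentoses, disaccharides or cellodextrins across the plasma membrane. A fungus growing on cellulose secretes cellulases, takes up the cellobiose and glucose that they release, and needs such porters for nutrition. Fungal genomes hold many of these genes, and their transcripts are known to vary with the carbon source, with transcription factors and with development. A transcript level does not give transport activity.

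The deleted genes were checked first. POX_b03080 had 0, 0.04 and 0 FPKM in the 3 Δprmt3 libraries and 33.38, 24.89 and 29.06 FPKM in Δku70. The sample labels name the deleted gene of these libraries as POX03070, and POX_b03070 was present at 159.2, 173.75 and 172.54 FPKM in Δprmt3, against 700.69, 609.21 and 837.95 FPKM in Δku70. The strain is called Δprmt3 here because POX_b03080 is the gene missing from its libraries and the study names no other deletion strain sequenced beside ΔcxrA. POX_a00763 was at 0 FPKM in every ΔcxrA library and at 116.3, 121.22 and 90.74 FPKM in Δku70. FPKM, the fragment level normalised to transcript length and to the mapped fragments of a library, can be compared between genes. Summed FPKM per library lay between 1036054 and 1096738. The tables hold no read numbers, so the depth is unknown and no counting interval is given. Differences between strains were computed after a further scaling of FPKM by the median ratio over genes, and a log2 fold change is on the log2(scaled FPKM + 0.1) scale, which understates the change of genes near 0. Without that scaling the median log2 fold change of annotated genes moved by -0.14 for Δprmt3 and 0.40 for ΔcxrA, both against Δku70. Both mutants are set against the same 3 Δku70 libraries.

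POX_c04204 was the gene with much transcript in Δprmt3 alone. It had 111.77, 272.15 and 186.28 FPKM in Δprmt3, 25.65, 30.9 and 30.57 FPKM in ΔcxrA, and 25.68, 24.91 and 38.64 FPKM in Δku70. Every Δprmt3 library was above every Δku70 library. ΔcxrA and Δku70 overlapped in FPKM but not in scaled FPKM, where every ΔcxrA library was lower. Scaled means were 226 ± 96.8 in Δprmt3, 23.2 ± 2.78 in ΔcxrA and 31.5 ± 7.45 in Δku70 (SD, n = 3 each). The log2 fold change was 2.77 in Δprmt3 (standard error 0.31), which is 6.82-fold. In ΔcxrA it was -0.42 with the same standard error, and -0.01 without scaling. Set directly against Δprmt3, the ΔcxrA log2 fold change of POX_c04204 was -3.19. The Δprmt3 libraries spread widely, with an SD of 0.66 on the log2 scale, where the median gene had 0.17 in that strain. With 1 library left out at a time, the Δprmt3 log2 fold change stayed between 2.47 and 3.12.

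**Figure D1:**
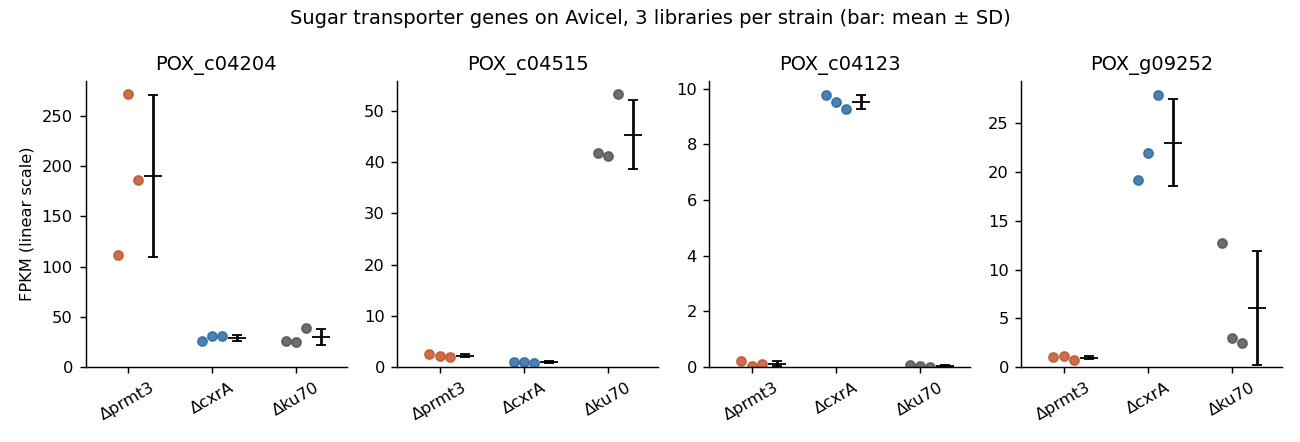
FPKM of the 4 sugar transporter genes in each library (points, linear axis from 0, a different range per gene), with the mean ± SD of 3 libraries as a bar, for Δprmt3, ΔcxrA and Δku70. POX_c04204 is high in Δprmt3 (111.77 to 272.15 FPKM), POX_c04515 in Δku70 (41.08 to 53.16 FPKM), POX_c04123 in ΔcxrA (9.28 to 9.78 FPKM), and POX_g09252 in ΔcxrA (19.18 to 27.95 FPKM) with 1 Δku70 library at 12.77 FPKM.

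POX_c04515 was the gene that both mutants nearly lacked. It had 2.65, 2.1 and 2.02 FPKM in Δprmt3, 1.09, 1.07 and 0.77 FPKM in ΔcxrA, and 41.81, 41.08 and 53.16 FPKM in Δku70. The 3 strains did not overlap, and ΔcxrA was the lowest. Scaled means were 2.67 ± 0.344 in Δprmt3, 0.780 ± 0.142 in ΔcxrA and 48.1 ± 6.15 in Δku70 (SD, n = 3 each). On the log2 scale Δprmt3 was at -4.12 from Δku70 (standard error 0.19), or 17.4-fold lower. ΔcxrA was at -5.78, or 55.0-fold lower. ΔcxrA was a further 1.66 lower than Δprmt3 on the log2 scale, 1.13 lower without scaling, 1.04 lower with a pseudocount of 1 and 2.85 lower under quantile normalization. Among annotated genes, POX_c04515 stood at or above 19.2% of the genes in Δprmt3, 9.56% in ΔcxrA and 65.3% in Δku70. Of 3 markers of conidiophores, the asexual spore-bearing structures, all were lower in Δprmt3 and 2 in ΔcxrA. The summed FPKM of brlA (POX_c03558), abaA (POX_e06958) and flbD (POX_e07032), regulators of conidiation, was 51.3 to 82.9 in Δprmt3, 33.8 to 39.5 in ΔcxrA and 284 to 340 in Δku70, and none of the 3 markers was at 0 in any strain. Of these, brlA had log2 fold changes of -4.86 in Δprmt3 and -6.37 in ΔcxrA, flbD -1.26 and -4.30, and abaA -1.38 and 0.39, the last not past the thresholds. The third marker, abaA, thus went against POX_c04515 in ΔcxrA, with 25.74, 22.24 and 21.66 FPKM there, against 12.63, 14.47 and 12.83 FPKM in Δku70. The part of such cells in the level of POX_c04515 was not tested. In bulk mycelium, fewer cells of a type and less RNA per cell cannot be told apart.

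POX_c04123 was near the lower limit of the tables in every strain but ΔcxrA. It had 0.21, 0.05 and 0.11 FPKM in Δprmt3, 9.78, 9.5 and 9.28 FPKM in ΔcxrA, and 0.07, 0.05 and 0 FPKM in Δku70. The Δprmt3 and Δku70 libraries overlapped, and the lowest ΔcxrA library was far above all 6 of them. The 3 ΔcxrA libraries were close together, with a scaled mean of 7.61 ± 0.157 (SD, n = 3), against 0.0428 ± 0.0382 in Δku70 (SD, n = 3), and Δprmt3 had 0.146 ± 0.0925 (SD, n = 3). The log2 fold change in ΔcxrA was 5.79 (standard error 0.38). Its size rests on the pseudocount, since it was 3.05 with a pseudocount of 1 and 7.65 with 0.01. In Δprmt3 the log2 fold change was 0.75 with the same standard error, and 0.13 and 1.85 with these pseudocounts. Even in ΔcxrA the gene was of modest level, at or above 25.5% of annotated genes.

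POX_g09252 differed in direction between the mutants. It had 0.99, 1.15 and 0.78 FPKM in Δprmt3, 19.18, 21.93 and 27.95 FPKM in ΔcxrA, and 12.77, 2.97 and 2.44 FPKM in Δku70. All Δprmt3 libraries were below, and all ΔcxrA libraries above, the range of Δku70. The first Δku70 library stood apart, at 4.10 times the scaled level of the second. Scaled means were 1.15 ± 0.208 in Δprmt3, 18.4 ± 3.72 in ΔcxrA and 6.40 ± 6.08 in Δku70 (SD, n = 3 each). The Δprmt3 level was -1.99 from that of Δku70 on the log2 scale, and the ΔcxrA level 1.89 (standard error 0.54 for each). Without the first Δku70 library these were -1.26 and 2.62, so neither sign rests on that library. The direct difference between ΔcxrA and Δprmt3 was 3.88 on the log2 scale. A large value there follows from the opposite directions for which the gene was chosen.

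Whether the first Δku70 library was high in other genes too was examined in a count added after its value was seen. Of 8786 annotated genes with a mean of at least 1 FPKM, 37 (0.421%) were at least 4-fold above both other libraries of the strain in the first Δku70 library. The same count ran between 15 and 66 genes over the 9 libraries. The 4-fold limit lies just below the 4.10 of POX_g09252, so its passing was set by the limit. At this limit no other of the 41 sugar transporter genes was so high in a single library, in any of the 3 strains. POX_f07454 was also high in 1 library, at 93.16 FPKM in Δku70 library 3, against 29.37 and 29.38 FPKM in libraries 1 and 2.

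The level order of the 4 genes changed with the strain. In Δprmt3 POX_c04204 was the highest, followed by POX_c04515, POX_g09252 and POX_c04123, with no overlap between neighbours in this order. In ΔcxrA the order was POX_c04204, POX_g09252, POX_c04123 and POX_c04515, and the first 2 of these overlapped, at 25.65 to 30.9 FPKM and 19.18 to 27.95 FPKM. In Δku70 it was POX_c04515, POX_c04204, POX_g09252 and POX_c04123, again without overlap.

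The 4 genes were a small fraction of the transcript of the 41 listed sugar transporter genes. That list holds only genes that the study called as changed, so transporter genes outside it are missing from the sums and orders below. Together the 4 genes held 0.454% to 0.966% of the summed level of the 41 genes in Δprmt3 libraries, 0.788% to 0.940% in ΔcxrA and 0.512% to 0.717% in Δku70. Most of the sum was held by POX_c04047 and POX_c04185, taken as a putative pair of cellodextrin transporter genes. That pair made up 73.1% to 76.3% of it in Δprmt3, 61.4% to 67.3% in ΔcxrA and 71.2% to 73.9% in Δku70. The sum itself was 30812 ± 2656 scaled FPKM in Δprmt3, 5719 ± 1155 in ΔcxrA and 14325 ± 619 in Δku70 (SD, n = 3 each). Against this moving total, POX_c04204 held 0.439% to 0.954% in Δprmt3, 0.351% to 0.458% in ΔcxrA and 0.185% to 0.294% in Δku70. Its share was thus above that of every Δku70 library in both mutants, and the mutants overlapped. POX_c04515 made up 0.00736% to 0.0104% of the sum in Δprmt3, 0.00885% to 0.0182% in ΔcxrA and 0.303% to 0.404% in Δku70. Placed by level among the 41 genes, POX_c04204 was between 10 and 14 from the top in Δprmt3 libraries, 17 to 20 in ΔcxrA and 18 to 24 in Δku70. POX_c04123 was 39 to 41 from the top in Δprmt3, 28 in each ΔcxrA library, and 40 or 41 in Δku70.

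The other genes of the list give a scale for the 4, of which POX_g09252 was not an extreme. By log2 fold change, POX_g09252 was number 8 from the lowest in Δprmt3 and number 5 from the highest in ΔcxrA. The list was put together from genes that the study called as changed on these libraries, so its counts are not independent evidence of a change. Of the 41 genes, 26 were past both thresholds in Δprmt3 (limma, adjusted p below 0.05 and absolute log2 fold change above 1), 13 higher and 13 lower, where 11.2% of annotated genes and 11.1% of all features were. In ΔcxrA 29 were, 8 higher and 21 lower, where 28.5% of annotated genes and 29.7% of all features were. Without scaling the split was 11 higher and 14 lower in Δprmt3, and 9 higher and 15 lower in ΔcxrA. The median log2 fold change of the list was 0.05 in Δprmt3 and -1.04 in ΔcxrA, beside 0.0012 and 0.06 over all features tested. Of the 4 genes, 3 were past both thresholds in each mutant, which the way they were chosen sets.

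The genes next in order to each extreme were as follows. In Δprmt3, POX_b03074 followed POX_c04204 with a log2 fold change of 2.51, beside 2.77. It had 148.37, 190.75 and 116.84 FPKM in Δprmt3, against 24.5, 27.39 and 37.05 FPKM in Δku70. Without Δprmt3 library 3 these genes were close, with POX_c04204 at 2.72 and POX_b03074 at 2.67. At the other end, POX_h09727 at -3.83 and POX_a00364 at -3.78 followed POX_c04515 at -4.12. This order rests on Δku70 library 3, since without it POX_h09727, at -4.07, was lower than POX_c04515, at -4.02. In ΔcxrA, POX_e06200 at 3.28 and POX_e07146 at 3.27 came after POX_c04123 at 5.79, and POX_e06202 at -3.53 came after POX_c04515 at -5.78. The distances in ΔcxrA depend on the pseudocount. With a pseudocount of 1, POX_c04123 was at 3.05 and POX_e06200 at 2.56, and POX_c04515 was at -4.78 and POX_e06202 at -1.49.

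**Figure D2:**
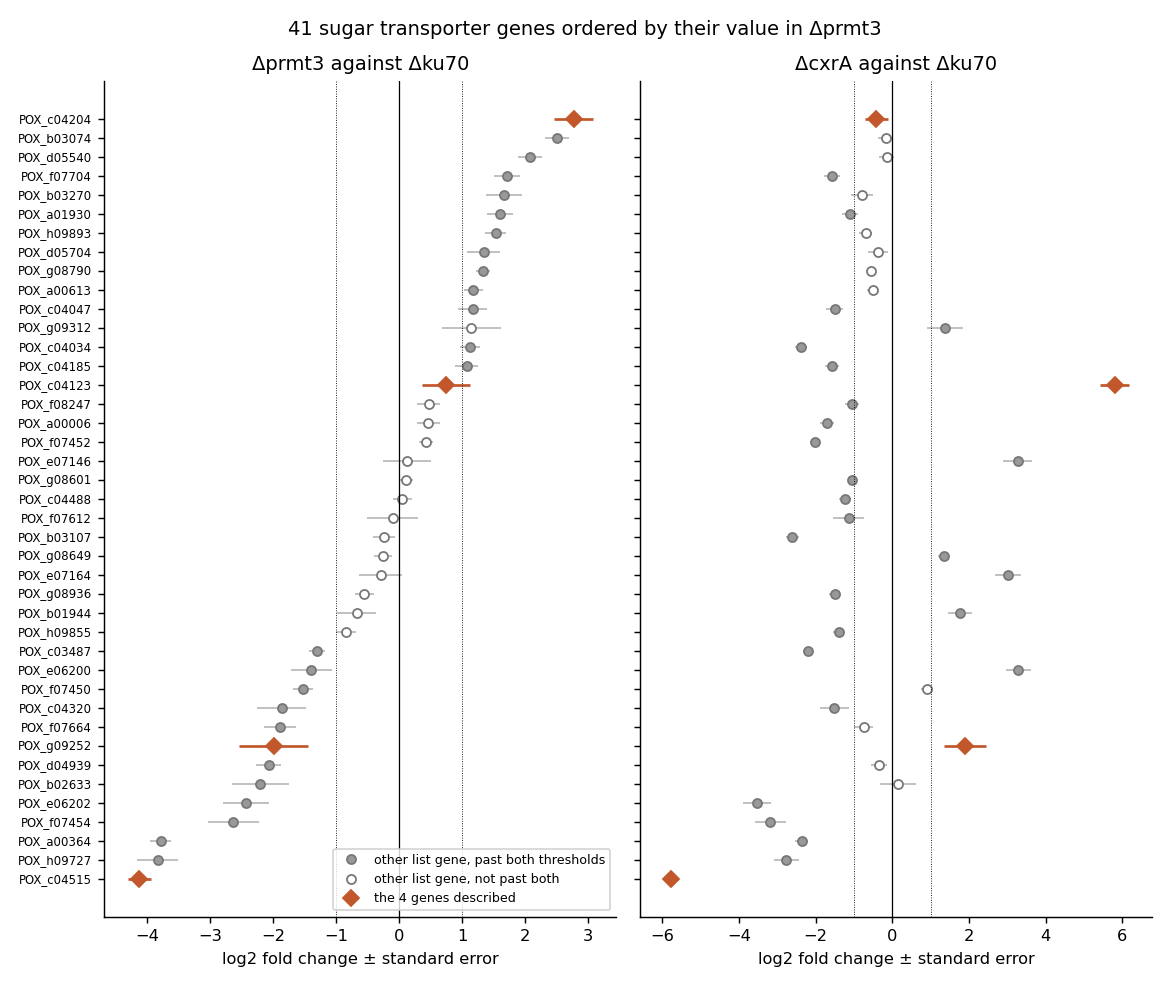
Log2 fold change with its standard error (horizontal axes) of the 41 sugar transporter genes (rows, ordered by the value in Δprmt3), in Δprmt3 against Δku70 on the left and in ΔcxrA against Δku70 on the right; diamonds mark the 4 genes described, filled circles other genes past both thresholds, and dotted lines a log2 fold change of 1 in either direction. POX_c04204 at 2.77 and POX_c04515 at -4.12 are at the ends on the left, and POX_c04123 at 5.79 and POX_c04515 at -5.78 are the extremes on the right.

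Combinations of calls in both mutants were counted only within the list, whose genes the study had called as changed. Their shares over all annotated genes were not computed, so whether a combination is rare cannot be told. POX_g09252 was past both thresholds as lower in Δprmt3 and higher in ΔcxrA together with 1 other gene, POX_e06200. For POX_g09252 this held under 12 of 17 other settings in Δprmt3 and 14 of 17 in ΔcxrA. It was lost in Δprmt3 without any 1 of the Δprmt3 libraries, under quantile normalization and in a fit of only the 6 libraries compared, and in ΔcxrA without ΔcxrA library 3, Δku70 library 2 or Δku70 library 3. POX_e06200 had 0.43, 0.35 and 0.15 FPKM in Δprmt3, 15.68, 12.07 and 14.51 FPKM in ΔcxrA, and 0.82, 0.9 and 1.35 FPKM in Δku70. Its log2 fold changes were -1.39 and 3.28, so it has the pattern for which POX_g09252 was chosen. With all libraries its fall was smaller and its rise larger than those of POX_g09252. Without the first Δku70 library the fall of POX_g09252 was -1.26, so the order of these falls is not settled. POX_e06200 was near 0 in Δprmt3, and its fall under the other settings is not given here. The opposite combination, higher in Δprmt3 and lower in ΔcxrA, was found in 5 genes of the list, POX_c04047 and POX_c04185 among them. Another 7 genes, including POX_c04515, were lower in both mutants, and 0 were higher in both. POX_c04204 was 1 of 8 genes higher in Δprmt3 and not past the thresholds in ΔcxrA, and POX_c04123 was 1 of 6 genes higher in ΔcxrA and not past them in Δprmt3. Not passing does not show that a gene was the same as in Δku70.

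The genes beside each transporter were not used to choose it. The 5 annotated genes on either side were taken from the order in the RefSeq table of assembly ASM172317v3, which held all 41 list genes, and 35 of these 40 neighbours had a value above 0 in some library and were tested. In Δprmt3, 12 of the 35 (34.3%) were past both thresholds, 1 higher and 11 lower, beside 11.2% of annotated genes (3.72% higher and 7.43% lower). In ΔcxrA 19 of the 35 (54.3%) were, 8 higher and 11 lower, beside 28.5% (14.6% higher and 13.9% lower). Without scaling the split in ΔcxrA was 10 higher and 9 lower. The neighbours of POX_c04515 made up most of the lower ones. Of its 9 tested neighbours, 8 were lower in Δprmt3 and 7 in ΔcxrA, with none higher in either. Without them, 4 of the other 26 neighbours were past the thresholds in Δprmt3 and 12 of 26 in ΔcxrA.

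**Figure D3:**
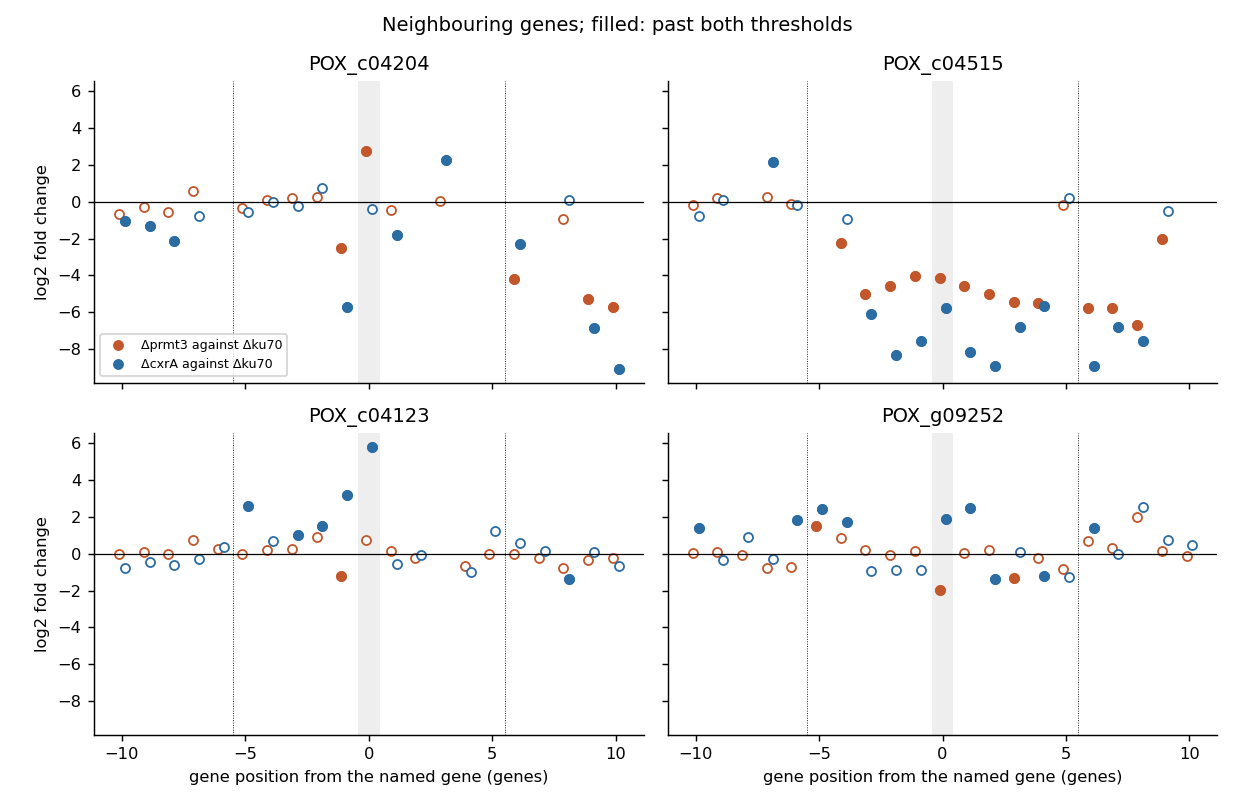
Log2 fold change (vertical axis) of the genes up to 10 positions on either side of each transporter gene (horizontal axis, in genes; grey band, the transporter gene), in Δprmt3 (orange) and ΔcxrA (blue), each against Δku70; filled points are past both thresholds and dotted lines mark 5 genes. Around POX_c04515 a run of genes lies between -4.03 and -8.93. Near POX_c04204, POX_c04213 and POX_c04214 fall as far, at -5.30 and -5.72 in Δprmt3 and -6.82 and -9.07 in ΔcxrA. Around POX_c04123 and POX_g09252 changes of both directions stand among genes near 0.

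Around POX_c04515 the low genes formed a nearly unbroken run. The window was widened to 10 genes on either side, a step added after the values were seen, which gave 17 tested genes. Of these, 12 were past both thresholds as lower in Δprmt3 and 10 in ΔcxrA, beside 7.43% and 13.9% of annotated genes. In ΔcxrA 1 was higher. The share of annotated genes lower in both mutants was not computed. In this window, 10 genes were lower in both mutants. These were POX_c04512, POX_c04513, POX_c04514, POX_c04516, POX_c04517, POX_c04518, POX_c04519, POX_c04521, POX_c04522 and POX_c04523. Their log2 fold changes ran from -6.70 to -4.03 in Δprmt3 and from -8.93 to -5.66 in ΔcxrA, a range that holds the POX_c04515 values of -4.12 and -5.78. Each stayed past both thresholds under all 17 other settings tried, though some values near 0 moved widely with the pseudocount. In ΔcxrA, POX_c04521, at 0, 0.09 and 0 FPKM there, had -5.86 with a pseudocount of 1 and -11.49 with 0.01. POX_c04519 had -3.61 in Δprmt3 and -3.65 in ΔcxrA with a pseudocount of 1. Of these genes, 9 are annotated as hypothetical proteins, and POX_c04517 carries a winged helix repressor DNA-binding domain.

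Several genes of the run were far more abundant than the transporter gene itself. POX_c04513 had 28, 14.32 and 21.26 FPKM in Δprmt3, 3.31, 2.3 and 1.25 FPKM in ΔcxrA, and 509.61, 465.06 and 696.27 FPKM in Δku70. POX_c04517 had 11.9, 7.91 and 12.47 FPKM in Δprmt3, 1.69, 1.22 and 0.34 FPKM in ΔcxrA, and 355.45, 339.46 and 468.45 FPKM in Δku70. For POX_c04517 the limma adjusted p was 9.0e-05 in Δprmt3 (log2 fold change -5.01) and 9.66e-07 in ΔcxrA (log2 fold change -8.93). At the far end, POX_c04523 had 0.28, 0.13 and 0.3 FPKM in Δprmt3, 0.14, 0.17 and 0.09 FPKM in ΔcxrA, and 46.86, 35.31 and 28.44 FPKM in Δku70. In the run, all mutant libraries were below all Δku70 libraries for each of these 3 genes. The part of conidiophore cells, whose markers were given above, in the levels of the run was not tested.

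At the thresholds used the run had ends in ΔcxrA, while in Δprmt3 the genes beside it were also lower, though by less than the run. These genes, POX_c04511 and POX_c04524, were of low level, at most 2.48 and 1.98 FPKM in any library. POX_c04511 had a log2 fold change of -2.24 in Δprmt3 (limma adjusted p = 0.0042) and -0.92 in ΔcxrA (limma adjusted p = 0.079), the second not past the thresholds. POX_c04524, annotated as a homeodomain-like transcription factor, had -2.02 in Δprmt3 (limma adjusted p = 0.0076; -0.93 with a pseudocount of 1) and -0.51 in ΔcxrA. Beyond POX_c04524, the last gene of the window, POX_c04525, was at 0 in every library, so no end was seen there in Δprmt3. POX_c04520, inside the run, was near 0 in every library. Beyond POX_c04511, POX_c04509 had -0.12 in Δprmt3 and -0.17 in ΔcxrA. Farther out, POX_c04508 was higher in ΔcxrA with a log2 fold change of 2.15 and had 0.25 in Δprmt3.

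**Figure D4:**
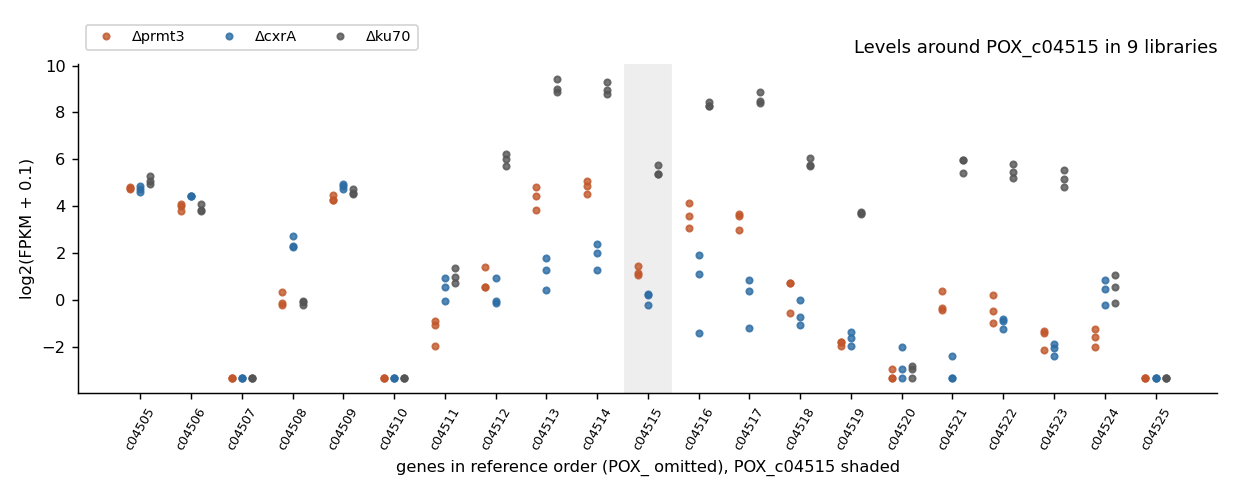
Levels as log2(FPKM + 0.1) (vertical axis) of POX_c04515 (grey band) and the 10 genes on either side in reference order (horizontal axis), with 1 point per library for Δprmt3, ΔcxrA and Δku70. From POX_c04512 to POX_c04523, other than POX_c04520, the Δku70 points lie above those of both mutants, and for POX_c04513 they are at 465.06 to 696.27 FPKM, against 14.32 to 28 FPKM in Δprmt3.

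POX_c04204 did not share its rise with the genes beside it. Of its 7 tested neighbours, 1 was past both thresholds in Δprmt3 and 3 were in ΔcxrA, beside 11.2% and 28.5% of annotated genes. The one in Δprmt3 was POX_c04203, next to it, annotated as a hypothetical protein, and it was lower. POX_c04203 had 116.99, 129.8 and 114.14 FPKM in Δprmt3, 24.58, 20.34 and 14.45 FPKM in ΔcxrA, and 826.86, 787.1 and 669.3 FPKM in Δku70. Its log2 fold changes were -2.50 in Δprmt3 (limma adjusted p = 2.36e-05) and -5.69 in ΔcxrA (limma adjusted p = 1.04e-07), while POX_c04204 had 2.77 and -0.42. On the other side, POX_c04205 was lower in ΔcxrA with a log2 fold change of -1.80 and had -0.48 in Δprmt3. POX_c04207 was higher in ΔcxrA, at 2.27, and had 0.04 in Δprmt3. Of 15 tested genes in the wider window, 4 were past both thresholds as lower and 0 as higher in Δprmt3. In ΔcxrA 8 were lower and 1 higher, beside 13.9% and 14.6% of annotated genes. Of the lower ones, POX_c04194 and POX_c04195 were not past the thresholds in FPKM without scaling. POX_c04213 and POX_c04214 had log2 fold changes of -5.30 and -5.72 in Δprmt3, and of -6.82 and -9.07 in ΔcxrA. POX_c04210, at most 3.51 FPKM in any library, had -4.18 in Δprmt3 and -2.32 in ΔcxrA.

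POX_c04123 had neighbours on one side that were also higher in ΔcxrA. Of its 9 tested neighbours, 4 were past both thresholds in ΔcxrA, all higher, and 1 in Δprmt3. Over all annotated genes 28.5% were past them in ΔcxrA (14.6% higher) and 11.2% in Δprmt3. POX_c04122, next to it, had 11.18, 9.71 and 11.41 FPKM in Δprmt3, 327.29, 319.26 and 344.26 FPKM in ΔcxrA, and 32.3, 24.7 and 26.03 FPKM in Δku70. It rose by 3.17 on the log2 scale in ΔcxrA (limma adjusted p = 1.51e-07) and fell by 1.19 in Δprmt3 (limma adjusted p = 0.000107). The level of this hypothetical protein gene in ΔcxrA was thus over that of the transporter gene, which had 9.28 to 9.78 FPKM there. POX_c04121 rose by 1.50, POX_c04118 by 2.58 and POX_c04120 by 1.00 in ΔcxrA. The last was at the threshold and was past it under 12 of 17 other settings. On the other side of POX_c04123, none of the tested genes within 5 positions was past the thresholds in either mutant.

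POX_g09252 had neighbours of mixed direction. Of 10 tested neighbours, 2 were past both thresholds in Δprmt3 and 5 in ΔcxrA, the 5 being 3 higher and 2 lower. Over all annotated genes 11.2% were past them in Δprmt3 and 28.5% in ΔcxrA. POX_g09253, next to it, had 0.68, 0.12 and 0.46 FPKM in Δprmt3, 3.32, 3.93 and 3.01 FPKM in ΔcxrA, and 0.29, 0.44 and 0.44 FPKM in Δku70, with log2 fold changes of 0.04 in Δprmt3 and 2.47 in ΔcxrA. It rose in ΔcxrA as the transporter gene did, without the lower level in Δprmt3. POX_g09254, annotated as a rhamnogalacturonan endolyase, an enzyme that cuts the pectin backbone, fell by 1.37 on the log2 scale in ΔcxrA and POX_g09256 by 1.20, and neither was past the thresholds in FPKM without scaling. POX_g09255 fell by 1.31 in Δprmt3. POX_g09248 and POX_g09247 rose by 1.72 and 2.43 in ΔcxrA, and POX_g09247 also by 1.50 in Δprmt3, the last past the thresholds under 9 of 17 other settings. Unlike POX_g09252, none of its tested neighbours was lower in Δprmt3 and higher in ΔcxrA.

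The 3 genes whose pattern over the 9 libraries was most like each transporter gene lay outside the list, which holds few of the genes compared. Likeness was Pearson r on log2(scaled FPKM + 0.1) over 9 libraries, among 8785 annotated genes of mean FPKM at least 1, and is a description, since the libraries fall into 3 strains. For POX_c04204 these were POX_e07244 (r = 0.987), annotated as a polygalacturonase, an enzyme that hydrolyses pectin, then POX_e06988 (0.986) and POX_a00850 (0.982). POX_e07244 had 34.64, 46.38 and 48.64 FPKM in Δprmt3, 10.93, 10.13 and 9.63 FPKM in ΔcxrA, and 9, 7.82 and 12.54 FPKM in Δku70. It was high in the same strain as POX_c04204, with a smaller distance between the strains. Few genes were so like POX_c04204, with 39 above an r of 0.95.

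For POX_c04515, 238 genes had an r above 0.95. The closest were POX_a00085 (0.999), POX_g08923 (0.998) and POX_d05443 (0.998), all annotated as hypothetical proteins. POX_a00085 had 8.58, 6.76 and 5.88 FPKM in Δprmt3, 3.1, 3.51 and 2.14 FPKM in ΔcxrA, and 204.19, 201.66 and 229.25 FPKM in Δku70. For POX_c04123, 561 genes had an r above 0.95, led by POX_g09199 (0.999), POX_a01149 (0.997) and POX_u09920 (0.996). POX_u09920 had 2.05, 1.15 and 1.06 FPKM in Δprmt3, 40.5, 38.22 and 29.39 FPKM in ΔcxrA, and 1.02, 0.78 and 0.67 FPKM in Δku70. POX_g09252 had the fewest genes above 0.95 of the 4, at 16, led by POX_a00533 (0.984), POX_a00547 (0.974) and POX_e06852 (0.973). Pearson r does not measure the size of a change, and these genes were not past the thresholds against Δku70 in either mutant. In that order, their log2 fold changes were -0.20, -0.68 and -0.47 in Δprmt3, and 0.26, 0.94 and 0.22 in ΔcxrA. POX_a00547 had 3.36, 2.81 and 2.61 FPKM in Δprmt3, 13.84, 13.21 and 13.74 FPKM in ΔcxrA, and 7.64, 5.28 and 3.64 FPKM in Δku70, where the first library was again the highest.

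The actin gene POX_d06005, which the study uses as a reference in quantitative PCR, bears on the scale of these levels. It had 31.74, 26.81 and 28.6 FPKM in Δprmt3, 128.99, 112.66 and 113.48 FPKM in ΔcxrA, and 33.16, 31.32 and 35.68 FPKM in Δku70. It differed from Δku70 by -0.04 on the log2 scale in Δprmt3, and by 1.41 in ΔcxrA. A level of POX_c04204, POX_c04515, POX_c04123 or POX_g09252 relative to actin would therefore be lower in ΔcxrA than the values given here.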

How the data were processed

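The deposited tables, 1 per library, give FPKM per gene. Per the study's methods and the labels, the authors cleaned reads with SOAPnuke, aligned them with HISAT2, estimated FPKM with RSEM and Bowtie2, and called changed genes from read numbers with DESeq2. The genome build is not given in the sources used here. Read numbers were not recovered from the deposited FPKM, which are rounded to 2 decimals. Here each library was divided by its median ratio to the geometric mean over genes, transformed as log2(FPKM + 0.1) and fitted for 10578 features above 0 in some library with limma 3.58.1 in R 4.3.3, strain as the only term, all 9 libraries sharing 1 estimate of spread, Benjamini-Hochberg over all features. A gene was called past both thresholds at adjusted p below 0.05 and absolute log2 fold change above 1. The p-values measure the spread between 3 libraries a strain. Tables were read in Python 3.11.15. The fit was tested on simulated data.

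The transporter genes and the lists were chosen with earlier results of these data known. The list of 41 genes joins those the study annotates as sugar transporters among its changed genes, and the reference table gave no product names to extend it. Genes named are the 4 transporter genes, their called neighbours, the 3 genes most like each, the genes next in order to each extreme, the putative cellodextrin transporter pair, the deleted genes, actin and the conidiophore markers. POX_b03070, POX_e06200, POX_f07454, POX_c04520 and the genes more than 5 positions away were named after their values were seen. Alternatives were other scalings, pseudocounts of 1 and 0.01, a minimum mean of 1 FPKM, only the 6 libraries compared, robust moderation, a replicate block and leaving out each library. Of 9822 annotated genes, 9718 were in the RefSeq table of assembly ASM172317v3, used only for gene order. Sequences were not used here.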

Additional observations from a re-analysis of the deposited data

How the results depend on the processing

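Counts of called genes changed little. In 17 alternatives each, the counts in Δprmt3 and in ΔcxrA over all features, in the list of 41 genes and among the neighbours stayed within 1.5 times the values given. With 1 library left out, 1091 to 1176 features were called in Δprmt3, against 1174 with all libraries, and 2928 to 3157 in ΔcxrA, against 3137. The list then held 24 to 26 called genes in Δprmt3 and 25 to 29 in ΔcxrA, and the neighbours 11 to 13 and 18 to 20. The replicate numbers did not pair the samples, since deviations of same-numbered libraries correlated between -0.069 and 0.059. With the replicate number as a block, Δprmt3 had 1114 called features and ΔcxrA 3117, the list had 26 and 28 called genes and the neighbours 11 and 19. Without scaling, the annotated genes called in ΔcxrA split into 2246 higher and 849 lower, against 1365 and 1300 with it, and those in Δprmt3 into 270 and 807, against 348 and 696. No log2 fold change of the 4 genes changed sign under any alternative. In ΔcxrA, that of POX_c04515 was -4.78 with a pseudocount of 1, -5.40 without scaling and -6.52 under quantile normalization, and that of POX_c04123 was 4.92 under quantile normalization and 6.14 without scaling. In Δprmt3, POX_c04515 had -3.67 under quantile normalization. For POX_g09252 the range with 1 library left out was -2.44 to -1.26 in Δprmt3 and 1.44 to 2.62 in ΔcxrA. Values near the smallest the tables hold (0.01 to 0.03 FPKM), such as those of POX_c04123 in Δprmt3 and Δku70 and of POX_c04521 in ΔcxrA, leave the size of a fold change to the pseudocount.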
